A study of Mus musculus with 4 samples.

Results

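Genes of iron uptake, transport, storage, export, heme breakdown and siderophore binding were followed in mouse dendritic cells in which the orphan nuclear receptor NR4A3 had been silenced. The members were listed by gene symbol, and each was read from its brightest probe set that carried a single symbol. Of 9 listed genes, 8 were measured (Tfrc, Slc11a2, Slc40a1, Fth1, Aco1, Ireb2, Hmox1 and Lcn2), among 19938 named genes in all. Slc11a1, the phagosomal metal transporter, was not analysed here. Each of the 8 had 1 probe set, and all 8 reached the filter on dim genes (6.66 on the log2 scale, the median of the named genes) on at least 1 array.

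The cells were grown from mouse bone marrow with 20 ng/mL of the myeloid growth factor GM-CSF and 10% serum, a culture that also yields macrophages. On day 10 they were electroporated with siRNA, and 24 hours later they received LPS at 100 ng/mL, a bacterial endotoxin that signals through TLR4, or none. All cells were harvested 24 hours after that point. The 4 groups were NR4A3 siRNA with LPS, control siRNA with LPS, NR4A3 siRNA unstimulated and control siRNA unstimulated, with 1 array each. The label texts name BALB/c mice for the culture but C57BL/6 as the strain of the samples. Expression was read on Affymetrix Mouse Gene 1.0 ST arrays as log2 values, and array medians lay between 6.37 and 6.42.

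Cells take up iron mainly as transferrin bound to the transferrin receptor, which is internalised, and the iron leaves the endosome through the divalent metal transporter DMT1. Iron that is not used is stored in ferritin or leaves the cell through ferroportin, which the peptide hormone hepcidin removes from the surface. The iron regulatory proteins IRP1 and IRP2 bind RNA hairpins called iron-responsive elements and so stabilise the transferrin receptor transcript and block translation of ferritin when iron is low. During infection, myeloid cells and hepatocytes withhold iron from microbes through these proteins and through lipocalin-2, which binds bacterial siderophores.

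With 1 array per condition, a pair of arrays gives a difference but no test. What could be tested is the mean effect of each factor, which limma estimated from the 4 arrays in a fit with both factors over 10592 genes, and the words rose and fell below refer to that fit (adjusted p under 0.05). Its residual has 1 degree of freedom, made of the difference between both LPS effects and of array noise. Whether separate cultures were used is not stated in the labels, and the p-values then reflect the spread among these arrays alone.

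Nr4a3 itself stood at 9.39 with NR4A3 siRNA and LPS against 11.77 with control siRNA and LPS, and at 7.15 with NR4A3 siRNA against 11.21 with control siRNA in unstimulated cells. It was thus 5.21-fold lower with LPS and 16.6-fold lower without. Of the other NR4A receptor genes, Nr4a2 was 2.28-fold lower with NR4A3 siRNA under LPS and 1.24-fold lower without. Nr4a1 was 1.06-fold and 1.08-fold higher. Of 12 dendritic cell markers, 10 reached the filter on every array and Flt3 on none. The median difference of the 12 between the siRNAs was -0.05 with LPS and -0.02 without, with 3 and 5 of them higher. Single markers differed more. Ccr7 was 1.67-fold lower with NR4A3 siRNA under LPS and 11.6-fold lower without, and Irf4 2.42-fold and 1.58-fold lower. Cd209a was 1.13-fold higher under LPS, where it lay below the filter, and 3.93-fold higher without. Neutrophil markers other than Lcn2 were mostly dim: 10 of 13 lay below the filter on all arrays, among them Ly6g, Camp, Ngp, Mpo and Elane. All 7 measured erythroid genes did so too. Of 14 macrophage markers, 9 reached the filter on every array, and the complement genes C1qa, C1qb and C1qc were at least 2-fold higher with NR4A3 siRNA in both states, while Vcam1 was 3.16-fold lower with NR4A3 siRNA under LPS. In such bulk samples, fewer cells of a type and less RNA per cell cannot be told apart.

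The comparison of the siRNAs asks what differs with NR4A3 siRNA in these cells, where Nr4a2 was lower too. The part of Nr4a2 in the siRNA differences was not tested. Averaged over both states, the transcripts of the iron importers Tfrc and Slc11a2 and of the exporter Slc40a1 rose with NR4A3 siRNA, and Ireb2, which encodes IRP2, fell. These were 3 of 8 members higher and 1 of 8 lower, beside 1.98% and 3.58% of the 10592 genes called in those directions. The siRNA calls were near the threshold. With cyclic loess scaling between the arrays all 4 were lost, with adjusted p of 0.0550 for Tfrc, 0.0590 for Slc11a2, 0.0669 for Slc40a1 and 0.0597 for Ireb2. Without the filter on dim genes they were lost as well, with adjusted p from 0.0731 to 0.0772. Fewer of all genes were called in these settings too: 0.472% higher and 2.05% lower with cyclic loess, and 0.12% and 0.662% without the filter. Fth1, Aco1, Hmox1 and Lcn2 did not pass the test for silencing.

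**Figure D1:**
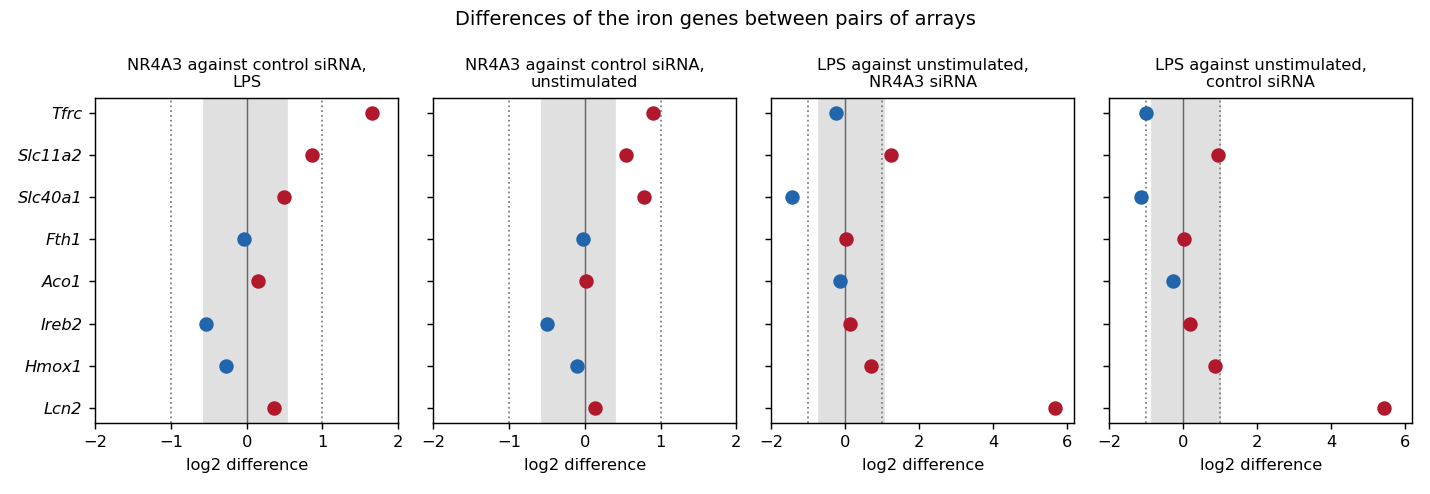
Differences on the log2 scale for the 8 iron genes in the 4 comparisons of array pairs, 1 point per gene, with a grey band from the 5th to the 95th percentile of the genes past the filter and dotted lines at 2-fold. Tfrc lies above the band for NR4A3 siRNA against control siRNA in both states, at 0.90 in unstimulated cells and 1.65 with LPS, and Lcn2 lies farthest above it for LPS against unstimulated cells.

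Single pairs of arrays gave the sizes. With LPS, Tfrc was the 1 member at least 2-fold higher with NR4A3 siRNA, beside 0.47% of 10210 genes past the filter. In unstimulated cells no member was 2-fold higher, beside 0.205% of 10257 genes, but Tfrc and Slc40a1 were past 1.5-fold, beside 1.62%. With LPS, Tfrc and Slc11a2 were past 1.5-fold, beside 3.73%. No member was 2-fold lower in either state, beside 1.67% of genes with LPS and 1.72% without. The median difference of the 8 members between the siRNAs was 0.26 with LPS, against 0.05 over all genes past the filter, and 0.08 without LPS, against 0.02.

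The fit called 5 of the 8 members for LPS and 4 for the siRNA, and it also called more of all genes for LPS. Slc11a2, Hmox1 and Lcn2 rose, which is 3 of 8 beside 15.6% of all genes in the fit, and Tfrc and Slc40a1 fell, which is 2 of 8 beside 14.4%. Lcn2, Slc11a2, Hmox1 and Slc40a1 stayed past the threshold under all alternatives run for them, while the call of Tfrc did not, as given below. At least 2-fold differences between LPS-treated and unstimulated cells were seen for Lcn2 and Slc11a2, higher, and Slc40a1, lower, with NR4A3 siRNA, beside 5.31% and 2.71% of 10353 genes. With control siRNA they were seen for Lcn2, higher, and for Tfrc and Slc40a1, lower, beside 5% and 3.83% of 10346 genes. Hmox1 joined Lcn2 and Slc11a2 at 1.5-fold higher, 3 members beside 10.3% of genes with NR4A3 siRNA and beside 10.2% with control siRNA. The median of the 8 members was 0.08 with NR4A3 siRNA and 0.11 with control siRNA, against 0.02 and -0.02 over all genes.

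**Figure D2:**
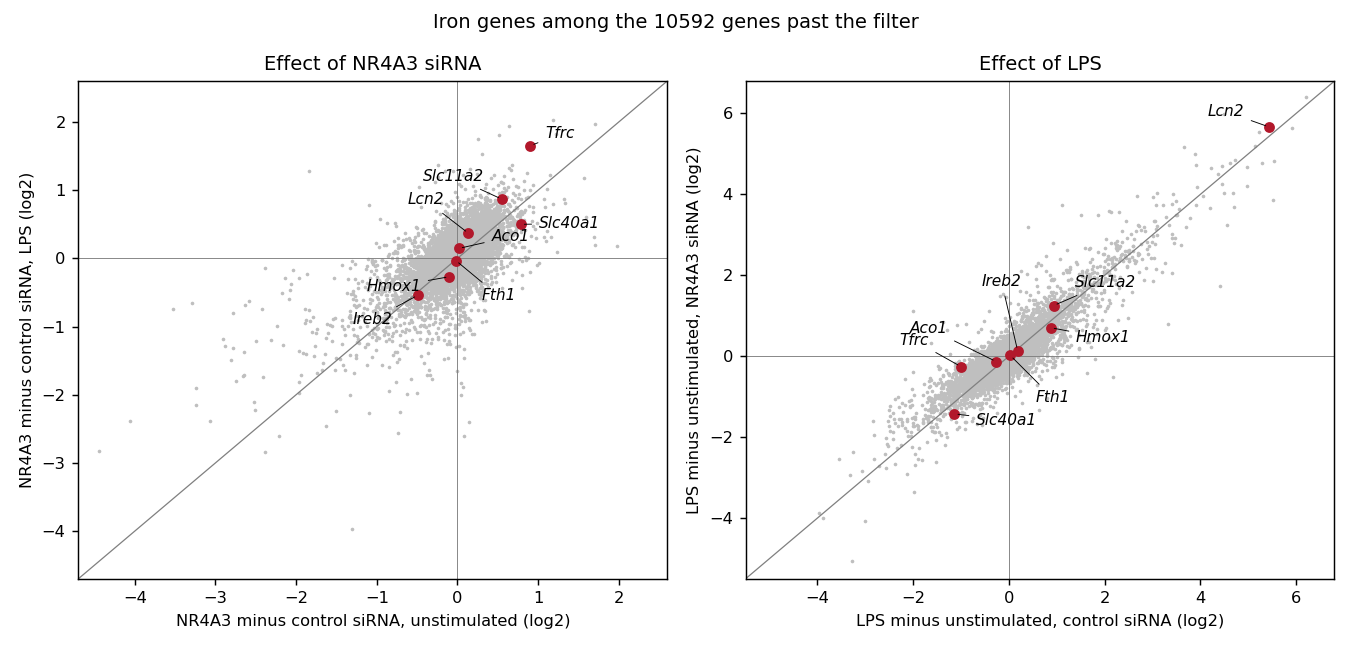
The 8 iron genes among 10592 genes (grey), with the log2 difference between NR4A3 siRNA and control siRNA in unstimulated cells against that in LPS-treated cells on the left, and the LPS difference with control siRNA against that with NR4A3 siRNA on the right. The pairs of arrays on the axes of a panel share no array. Tfrc lies at 0.90 and 1.65 in the left panel, and Lcn2 at 5.43 and 5.67 in the right panel.

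**Figure D3:**
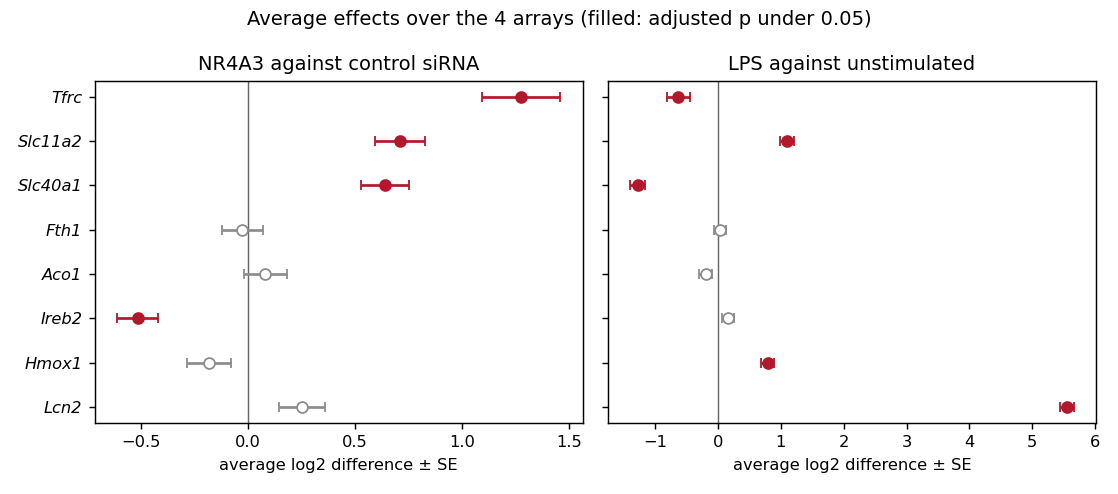
Average log2 difference for NR4A3 siRNA against control siRNA and for LPS against unstimulated cells, over 4 arrays, with the standard error of the fit for each of the 8 iron genes. Filled points passed an adjusted p of 0.05: 4 genes for the siRNA and 5 for LPS, with Tfrc the highest for the siRNA at 1.28 and Lcn2 the highest for LPS at 5.55.

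Tfrc encodes transferrin receptor 1, the main entry route of transferrin iron. Its level was 8.68 with NR4A3 siRNA and LPS, 7.02 with control siRNA and LPS, 8.93 with NR4A3 siRNA unstimulated and 8.03 with control siRNA unstimulated. Both arrays with NR4A3 siRNA lay above both arrays with control siRNA. The transcript was 3.14-fold higher with NR4A3 siRNA under LPS and 1.87-fold higher without LPS, which ranked it 7th highest of 10210 genes and 32nd highest of 10257. LPS-treated cells held 1.19-fold less than unstimulated cells with NR4A3 siRNA, and just past 2-fold less with control siRNA, so that the lowest array was control siRNA with LPS. The difference between both LPS effects, NR4A3 siRNA minus control siRNA, was 0.75 (log2). No member was 2-fold higher or lower in that difference, beside 0.651% and 0.557% of 10592 genes. Tfrc was the 1 member past 1.5-fold, beside 2.9%, and the difference has no test because it uses all 4 arrays once. In the fit, Tfrc rose by 1.28 ± 0.18 (SE) with NR4A3 siRNA (limma adjusted p = 0.0241, range over 7 alternatives 0.0143 to 0.0731) and fell by 0.63 ± 0.18 with LPS (adjusted p = 0.0491, range 0.0378 to 0.108). The LPS call was lost with cyclic loess scaling (adjusted p = 0.0690) and without the filter (0.108).

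The transferrin receptor is abundant in dividing cells, so cell cycle genes were read beside it. The median difference of 19 such genes between NR4A3 siRNA and control siRNA was -0.18 with LPS and -0.77 without, and 0 and 6 of them were at least 2-fold lower. Between LPS-treated and unstimulated cells their median was -0.69 with NR4A3 siRNA and -1.38 with control siRNA. Single genes departed from these medians. With LPS, 4 of the 19, Mki67, Pcna, Mcm3 and Cdk1, were higher with NR4A3 siRNA, as Tfrc was, and without LPS 0 were. Between LPS-treated and unstimulated cells, 3 were higher with NR4A3 siRNA and 1, Tyms, with control siRNA. The part of cell division in the Tfrc values was not tested. The genes whose 4 array values, centred on their own mean, lay closest to those of Tfrc among 10108 genes were Gas2l3, Dctd and P2ry2, at Euclidean distances of 0.325, 0.444 and 0.445 on the log2 scale.

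The Tfrc start region is shown because Tfrc had the largest siRNA effect among the members. It is the RefSeq sequence of the GRCm38.p6 build at chr16:32608646-32608920, plus strand, from 250 bases before the annotated start to 25 after it. The capitals mark ACGTG, the core of the hypoxia response element bound by HIF factors.
Tfrc: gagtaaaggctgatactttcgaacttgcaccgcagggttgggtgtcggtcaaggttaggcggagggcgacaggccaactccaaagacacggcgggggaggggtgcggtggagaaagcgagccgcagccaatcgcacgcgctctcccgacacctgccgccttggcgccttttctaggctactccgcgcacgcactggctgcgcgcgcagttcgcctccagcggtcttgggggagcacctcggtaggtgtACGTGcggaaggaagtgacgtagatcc
That core begins 2 bases before the start used here. RefSeq gave Tfrc 2 start windows, and in the other the core lies 228 bases before the start. Searched on both strands, ACGTG occurred in 19.6% of all 32851 RefSeq start windows of 300 bases, so its presence is common. AAAGGTCA, the NBRE motif of NR4A receptors, was found in 0 of the 7 windows that RefSeq gave for 5 members (Tfrc, Fth1, Lcn2, Aco1 and Ireb2), against 1.51% of all windows. The antioxidant response core TGANNNNGC was found in 1 member window, that of Aco1, against 41.3% of all windows. Found in none of the 7 were the iron-responsive element loop CAGTGN (sense strand alone, in 34.6% of all), the E-box CACGTG (7.15%, which contains ACGTG), the AP-1 motif TGANTCA (7.81%), the C/EBP palindrome TTGCGCAA (0.183%) and the STAT motif TTCNNNGAA (8.3%). No match says only that these letters are not in these windows. The windows reach 50 bases past the start, so most of each transcript was not searched for iron-responsive elements.

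**Figure D4:**
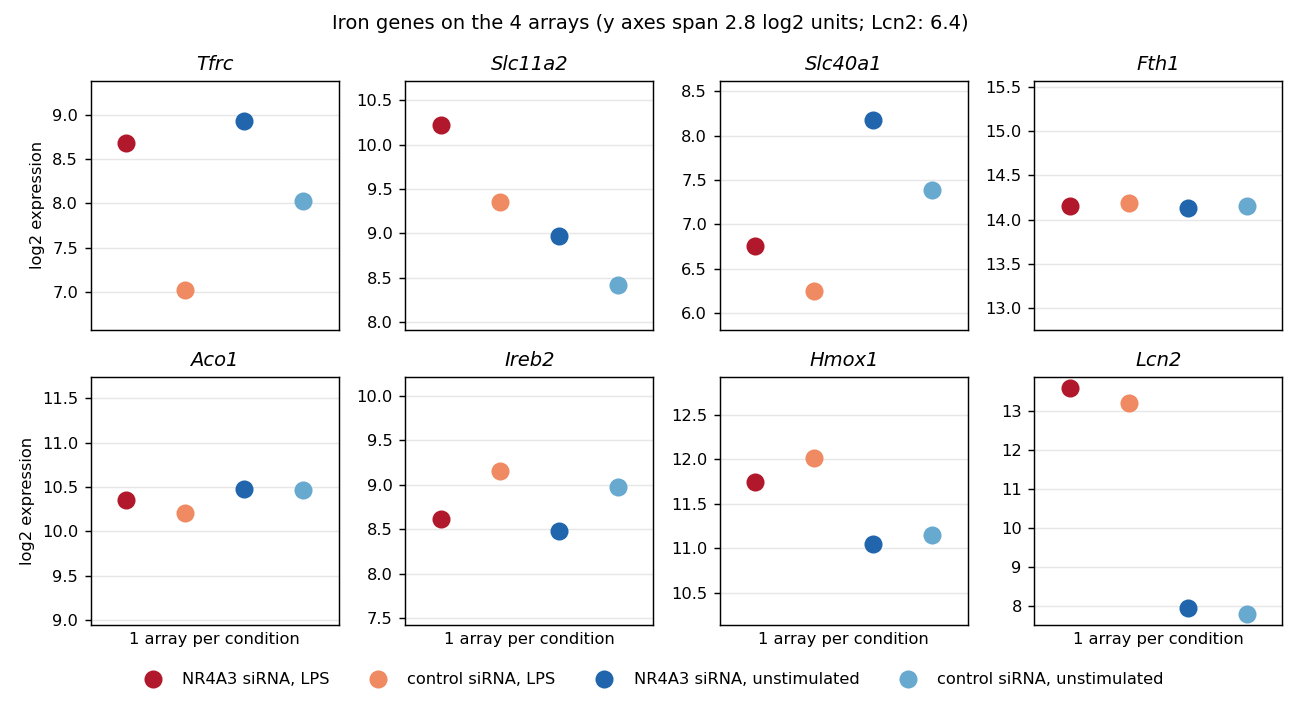
Log2 level of each of the 8 iron genes on the 4 arrays, 1 point per array, with NR4A3 siRNA left of control siRNA within LPS-treated and unstimulated cells. Panels span the same log2 height except that of Lcn2, and Fth1 lies between 14.14 and 14.19 on all 4 arrays, while Tfrc runs from 7.02 to 8.93.

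Slc11a2 encodes DMT1, which moves ferrous iron out of the endosome. Its level was 10.22 with NR4A3 siRNA and LPS, 9.35 with control siRNA and LPS, 8.97 with NR4A3 siRNA unstimulated and 8.42 with control siRNA unstimulated. Both treatments went with a higher level, and the array that had received both was the highest. NR4A3 siRNA cells held 1.82-fold more with LPS and 1.46-fold more without. LPS-treated cells held 2.38-fold more with NR4A3 siRNA and 1.91-fold more with control siRNA. Slc11a2 rose by 0.71 ± 0.12 with NR4A3 siRNA (limma adjusted p = 0.0334, range over 7 alternatives 0.0229 to 0.0735) and by 1.09 ± 0.12 with LPS (adjusted p = 0.00172). The importers Tfrc and Slc11a2 therefore moved in the same direction with the siRNA and in opposite directions with LPS. The nearest patterns were those of Ido2, Batf and Pilrb1, at distances of 0.219, 0.257 and 0.264.

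Of 15 listed genes of transferrin and endosomal uptake other than the members, 7 entered the fit. Steap3, the reductase that makes endosomal iron fit for DMT1, and Trf, which encodes transferrin itself, fell with LPS, and Steap3 rose with NR4A3 siRNA. These were 2 of 7 lower with LPS and 1 of 7 higher with NR4A3 siRNA, beside 14.4% and 1.98% of all genes. Steap3 stood at 8.46 with NR4A3 siRNA and LPS, 7.82 with control siRNA and LPS, 9.70 with NR4A3 siRNA unstimulated and 9.21 with control siRNA unstimulated. This is the order of the 2 LPS arrays below the 2 unstimulated arrays, with NR4A3 siRNA above control siRNA in each state. The fit gave -1.32 ± 0.10 for LPS (limma adjusted p = 0.000536) and 0.57 ± 0.10 for the siRNA (adjusted p = 0.0378). Trf was 2.09-fold lower in LPS-treated than in unstimulated cells with NR4A3 siRNA and 2.33-fold lower with control siRNA (limma adjusted p = 0.000851). The endosomal channel Mcoln1 and the sorting nexin Snx3 were higher with NR4A3 siRNA by 0.44 and 0.42 on average, but did not pass (adjusted p = 0.0737 and 0.0667).

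Slc40a1 encodes ferroportin, the only known iron exporter of mammalian cells. Its level was 6.75 with NR4A3 siRNA and LPS, 6.25 with control siRNA and LPS, 8.18 with NR4A3 siRNA unstimulated and 7.39 with control siRNA unstimulated. Both LPS arrays lay below both unstimulated arrays, and the level in LPS-treated control cells was under the filter, so folds against it are approximate. LPS-treated cells held 2.68-fold less than unstimulated cells with NR4A3 siRNA and 2.20-fold less with control siRNA. The transcript was 1.41-fold higher with NR4A3 siRNA under LPS and 1.72-fold higher without. Slc40a1 fell by 1.28 ± 0.11 with LPS (limma adjusted p = 0.000835) and rose by 0.64 ± 0.11 with NR4A3 siRNA (adjusted p = 0.0378, range over 6 alternatives 0.0276 to 0.0772, under the threshold in 3). Ferroportin is abundant in iron-recycling macrophages, and the median difference of the 14 macrophage markers between NR4A3 siRNA and control siRNA was 0.23 with LPS and 0.18 without. Of the 14, 9 were higher and 5 lower with LPS, and 10 were higher and 4 lower without. C1qb stood at 9.85 with NR4A3 siRNA and LPS, 7.82 with control siRNA and LPS, 11.40 with NR4A3 siRNA unstimulated and 10.21 with control siRNA unstimulated, the same order of arrays as Slc40a1. C1qa, C1qc, Csf1r, Mertk and Mrc1 shared that order, and the remaining markers of the 14 were ordered differently. Spic, a factor of iron-recycling macrophages, stood at 6.51 with NR4A3 siRNA and LPS, 6.85 with control siRNA and LPS, 5.64 with NR4A3 siRNA unstimulated and 6.19 with control siRNA unstimulated, so it was lower with NR4A3 siRNA in both states and higher with LPS. Marco and Vcam1 were likewise lower with NR4A3 siRNA in both states, by 0.64 and 1.66 (log2) under LPS and by 0.16 and 0.01 without. The part of macrophage-type cells in the Slc40a1 values was not tested. The nearest patterns were those of Tcp11l2, Klk1b1 and Vwf, at distances of 0.0699, 0.0721 and 0.110, where Klk1b1 belongs to a family of close copies that may share probes.

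Hamp, which encodes hepcidin, the hormone that removes ferroportin from the cell surface, had the largest LPS difference of the export and control genes. Its level was 10.69 with NR4A3 siRNA and LPS, 9.80 with control siRNA and LPS, 8.06 with NR4A3 siRNA unstimulated and 7.31 with control siRNA unstimulated. The LPS arrays lay above the unstimulated ones, and NR4A3 siRNA lay above control siRNA in each state. LPS-treated cells held 6.19-fold more with NR4A3 siRNA and 5.65-fold more with control siRNA. The transcript was 1.84-fold higher with NR4A3 siRNA under LPS and 1.68-fold higher without. Hamp rose by 2.56 ± 0.10 with LPS (limma adjusted p = 7.1e-05) and by 0.82 ± 0.10 with NR4A3 siRNA (adjusted p = 0.0175). Its close copy Hamp2 stood at 7.39, 7.04, 6.75 and 6.68 in the same order of arrays, and rose with LPS by 0.50 ± 0.11 (adjusted p = 0.0228). Probes of such near-identical copies may share signal, so the split between them is uncertain.

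The Hamp and Hamp2 promoters are shown because hepcidin was the iron hormone gene that rose with both treatments. They are RefSeq sequences of GRCm38.p6 on the minus strand, 250 bases up to the annotated start, at chr7:30944030-30944279 for Hamp and chr7:30924182-30924431 for Hamp2. The capitals mark a STAT motif (TTCNNNGAA) followed by an AP-1 motif (TGANTCA), which do not overlap.
Hamp: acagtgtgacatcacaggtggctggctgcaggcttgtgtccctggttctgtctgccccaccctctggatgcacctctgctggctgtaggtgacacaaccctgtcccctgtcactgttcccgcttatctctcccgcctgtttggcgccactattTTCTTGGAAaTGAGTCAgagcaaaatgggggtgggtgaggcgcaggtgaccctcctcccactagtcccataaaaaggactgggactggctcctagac
Hamp2: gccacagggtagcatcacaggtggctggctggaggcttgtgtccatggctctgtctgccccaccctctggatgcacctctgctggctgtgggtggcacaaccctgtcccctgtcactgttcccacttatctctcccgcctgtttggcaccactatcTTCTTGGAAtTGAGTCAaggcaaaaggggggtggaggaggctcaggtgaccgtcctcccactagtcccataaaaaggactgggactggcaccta
The STAT match is TTCTTGGAA in both, beginning 97 bases before the start in Hamp and 94 in Hamp2. The AP-1 match is TGAGTCA, at 87 and 84 bases before the start. Both motifs, searched on both strands, occurred together in 236 of 32851 start windows, which is 0.718%. The STAT motif was added to the search after the Hamp values were known, and a match is no evidence of binding in these cells.

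Of the other genes of export and systemic control, 6 of 12 entered the fit. With LPS 3 rose (Cp, Hamp and Hamp2) and 1 fell (Hfe), beside 15.6% and 14.4% of all genes. Cp encodes ceruloplasmin, the copper oxidase that loads exported iron onto transferrin. It stood at 7.53 with NR4A3 siRNA and LPS and 7.27 with control siRNA and LPS, against 5.42 with NR4A3 siRNA unstimulated and 5.28 with control siRNA unstimulated. Both unstimulated values lay under the filter, so the LPS folds of 4.33 with NR4A3 siRNA and 3.95 with control siRNA are approximate (limma adjusted p = 0.000119). Hfe, the hemochromatosis protein that binds transferrin receptor 1, fell by 0.51 ± 0.10 (adjusted p = 0.0126).

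The transcripts of both main ferritin chains were nearly level across the arrays. Fth1, the ferritin heavy chain that oxidises iron for storage, stood at 14.15 with NR4A3 siRNA and LPS, 14.19 with control siRNA and LPS, 14.14 with NR4A3 siRNA unstimulated and 14.16 with control siRNA unstimulated. Its adjusted p was 0.893 for the siRNA and 0.879 for LPS. Its values spanned 0.05 (log2), and its small differences between pairs of arrays went to 0 under another scaling. Ftl1, the ferritin light chain, lay between 13.84 and 13.87. The highest value on any array was 14.27, so both probe sets sat near the top of the scale, where differences can be compressed, and ferritin genes have processed pseudogenes that may share probes. Ferritin is set mainly by translation, which these arrays do not read. Of 6 genes of storage and ferritin turnover in the fit, 1 rose with LPS, beside 15.6% of all genes. This was Pcbp4, by 0.37 ± 0.10 (limma adjusted p = 0.0354), and the others did not pass. Those included Pcbp1 and Pcbp2, chaperones that deliver iron to ferritin, with LPS differences of 0.01 and -0.14. Ncoa4, the receptor that carries ferritin to lysosomes, stood at 12.02 with NR4A3 siRNA and LPS and 12.41 with control siRNA and LPS, against 11.87 and 11.79 in unstimulated cells with NR4A3 siRNA and control siRNA.

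Of the 2 iron sensors, Ireb2 passed the test for silencing and Aco1 did not, and the difference between them was not tested. Ireb2, which encodes IRP2, the sensor that is degraded when iron is plentiful, stood at 8.61 with NR4A3 siRNA and LPS, 9.15 with control siRNA and LPS, 8.48 with NR4A3 siRNA unstimulated and 8.97 with control siRNA unstimulated. Both NR4A3 siRNA arrays lay below both control siRNA arrays. The transcript was 1.46-fold lower with NR4A3 siRNA under LPS and 1.41-fold lower without. It fell by 0.52 ± 0.10 with NR4A3 siRNA (limma adjusted p = 0.0426, range over 7 alternatives 0.0331 to 0.0734, under the threshold in 4), and its LPS effect did not pass (adjusted p = 0.272). Aco1, which encodes IRP1, a cytosolic aconitase that binds RNA when it lacks its iron-sulfur cluster, stood at 10.35 with NR4A3 siRNA and LPS, 10.20 with control siRNA and LPS, 10.48 with NR4A3 siRNA unstimulated and 10.47 with control siRNA unstimulated. Its adjusted p was 0.650 for the siRNA and 0.191 for LPS, and its siRNA difference of 0.02 in unstimulated cells changed sign with the scaling.

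Among 8 other genes in the fit that control the iron regulatory proteins or carry iron-responsive elements, Cdc14a rose and Epas1 fell with LPS. That is 1 of 8 in each direction, beside 15.6% and 14.4% of all genes. Epas1 encodes the hypoxia factor HIF-2 alpha, whose transcript carries such an element. It stood at 6.44 on both LPS arrays, against 7.90 with NR4A3 siRNA unstimulated and 7.03 with control siRNA unstimulated. Both LPS values lay under the filter. The fit gave -1.03 ± 0.20 for LPS (limma adjusted p = 0.0149). Sdhb and Ndufs1, iron-sulfur subunits of respiratory complexes, were higher with NR4A3 siRNA by 0.47 and 0.32 on average and did not pass (adjusted p = 0.0597 and 0.140).

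Hmox1 encodes heme oxygenase 1, which opens the heme ring and releases its iron. Its level was 11.75 with NR4A3 siRNA and LPS, 12.02 with control siRNA and LPS, 11.05 with NR4A3 siRNA unstimulated and 11.15 with control siRNA unstimulated. Both LPS arrays lay above both unstimulated arrays, by 1.63-fold with NR4A3 siRNA and 1.83-fold with control siRNA. Hmox1 rose by 0.79 ± 0.10 with LPS (limma adjusted p = 0.00337), and its siRNA difference of -0.18 ± 0.10 did not pass (adjusted p = 0.310). Bach1, the heme-sensing repressor of Hmox1, fell with LPS. It stood at 9.01 with NR4A3 siRNA and LPS, 8.80 with control siRNA and LPS, 10.16 with NR4A3 siRNA unstimulated and 9.81 with control siRNA unstimulated (-1.08 ± 0.10, adjusted p = 0.00101).

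In the fit were 17 genes for the antioxidant factor NRF2, its regulators and partners, and its targets. Of these, 3 rose and 4 fell with LPS, beside 15.6% and 14.4% of all genes. Me1, the malic enzyme that makes NADPH, rose by 1.38 ± 0.13 (limma adjusted p = 0.00100), and Keap1, the inhibitor of NRF2, rose by 0.89 ± 0.10 (adjusted p = 0.00221). Nqo1, a quinone reductase, fell by 0.66 ± 0.15 (adjusted p = 0.0217), and was 1.14-fold lower with NR4A3 siRNA under LPS and 1.65-fold lower without.

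Of 20 heme genes in the fit other than Hmox1, 2 rose with NR4A3 siRNA, beside 1.98% of all genes. They were Slc46a1, a folate transporter that also carries heme, and Uros, a heme synthesis enzyme. Slc46a1 stood at 9.18 with NR4A3 siRNA and LPS, 8.39 with control siRNA and LPS, 8.45 with NR4A3 siRNA unstimulated and 8.01 with control siRNA unstimulated. As with Slc11a2, the array with both treatments was the highest. Slc46a1 rose by 0.62 ± 0.12 with NR4A3 siRNA (limma adjusted p = 0.0465) and by 0.56 ± 0.12 with LPS (adjusted p = 0.0197). Alas1, which starts heme synthesis, also rose with LPS (0.64 ± 0.10, adjusted p = 0.00540). Lrp1, the receptor of heme bound to hemopexin, fell (-0.79 ± 0.11, adjusted p = 0.00377). The heme exporter Flvcr1 was 1.52-fold higher with NR4A3 siRNA under LPS and 1.16-fold higher without, and passed neither test (adjusted p = 0.114 for the siRNA and 0.378 for LPS).

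Lcn2 encodes lipocalin-2, which captures bacterial enterobactin. Its level was 13.59 with NR4A3 siRNA and LPS and 13.23 with control siRNA and LPS, against 7.93 with NR4A3 siRNA unstimulated and 7.79 with control siRNA unstimulated. The LPS arrays stood far above the unstimulated ones, by 50.7-fold with NR4A3 siRNA and 43.3-fold with control siRNA, which ranked Lcn2 3rd highest of 10353 genes and 5th of 10346. It rose by 5.55 ± 0.11 with LPS (limma adjusted p = 1.7e-05, range over 7 alternatives 3.3e-06 to 0.000271). Between NR4A3 siRNA and control siRNA it differed by 0.37 (log2) under LPS and 0.14 without, and the siRNA effect did not pass (adjusted p = 0.211). Lcn2 is also a granule gene of neutrophils, whose summed level over the other 13 markers was, in log2, 12.31 with NR4A3 siRNA and LPS, 11.59 with control siRNA and LPS, 13.10 with NR4A3 siRNA unstimulated and 13.08 with control siRNA unstimulated. Mmp8 was the brightest of the 13 on every array, at 11.59, 10.51, 12.76 and 12.74 in the same order. Mmp9 came next at 10.12, 9.80, 9.95 and 9.98, so the sum says little of the dimmer markers. The part of neutrophils in the Lcn2 values was not tested. Ltf, lactoferrin of the same granules, lay between 5.35 and 5.45 on all 4 arrays, under the filter. The nearest patterns were those of Nos2, Susd2 and Slfn4, at distances of 0.490, 0.543 and 0.666.

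The Lcn2 promoter is shown because Lcn2 had the largest LPS effect among the members. It is the RefSeq sequence of GRCm38.p6 at chr2:32387740-32387989, minus strand, 250 bases up to the annotated start. The capitals mark GGACTACCCC, a match on the other strand to the NF-kappaB motif of GGG, any 5 bases and CC, beginning 102 bases before the start.
Lcn2: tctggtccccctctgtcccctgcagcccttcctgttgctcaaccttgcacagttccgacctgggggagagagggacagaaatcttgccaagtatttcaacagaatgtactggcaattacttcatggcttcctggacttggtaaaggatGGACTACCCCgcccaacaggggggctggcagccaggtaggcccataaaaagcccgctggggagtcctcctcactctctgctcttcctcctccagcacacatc
This motif was found in all 7 member windows, the windows of Aco1, Ireb2 and Fth1 included, and in 50.8% of all windows, so it does not set Lcn2 apart.

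Of 6 other genes of siderophore binding and nutritional immunity in the fit, 3 rose with LPS, beside 15.6% of all genes. None passed for the siRNA, beside 1.98% of all genes higher and 3.58% lower. Acod1, which makes the antimicrobial metabolite itaconate, stood at 13.66 with NR4A3 siRNA and LPS and 13.72 with control siRNA and LPS, against 10.52 with NR4A3 siRNA unstimulated and 10.64 with control siRNA unstimulated (3.11 ± 0.10, limma adjusted p = 4.5e-05). The acute phase gene Saa3 rose by 2.05 ± 0.12 (adjusted p = 0.000218) and the metallothionein Mt2 by 0.78 ± 0.10 (adjusted p = 0.00301). S100a8, a subunit of the metal-binding protein calprotectin, was 1.58-fold higher with NR4A3 siRNA under LPS and 1.02-fold higher without, and did not pass (adjusted p = 0.242).

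Of 22 mitochondrial iron genes in the fit, 3 rose and 4 fell with LPS, beside 15.6% and 14.4% of all genes. Slc25a37, mitoferrin-1, which brings iron into mitochondria for heme and iron-sulfur clusters, stood at 9.46 with NR4A3 siRNA and LPS and 9.42 with control siRNA and LPS, against 7.70 with NR4A3 siRNA unstimulated and 7.86 with control siRNA unstimulated. It was 3.39-fold higher with LPS under NR4A3 siRNA and 2.93-fold higher under control siRNA (1.66 ± 0.11, limma adjusted p = 0.000283). Bola3, an iron-sulfur cluster assembly factor, and Lyrm4, a partner of the cysteine desulfurase, fell (-0.65 ± 0.18, adjusted p = 0.0462, and -0.47 ± 0.11, adjusted p = 0.0231). Isca2, another cluster assembly factor, was the 1 gene of the other iron lists that fell with NR4A3 siRNA (-0.49 ± 0.10, adjusted p = 0.0472). Hspa9, a mitochondrial chaperone of cluster assembly, was higher with NR4A3 siRNA by 0.33 on average and did not pass (adjusted p = 0.214).

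**Figure D5:**
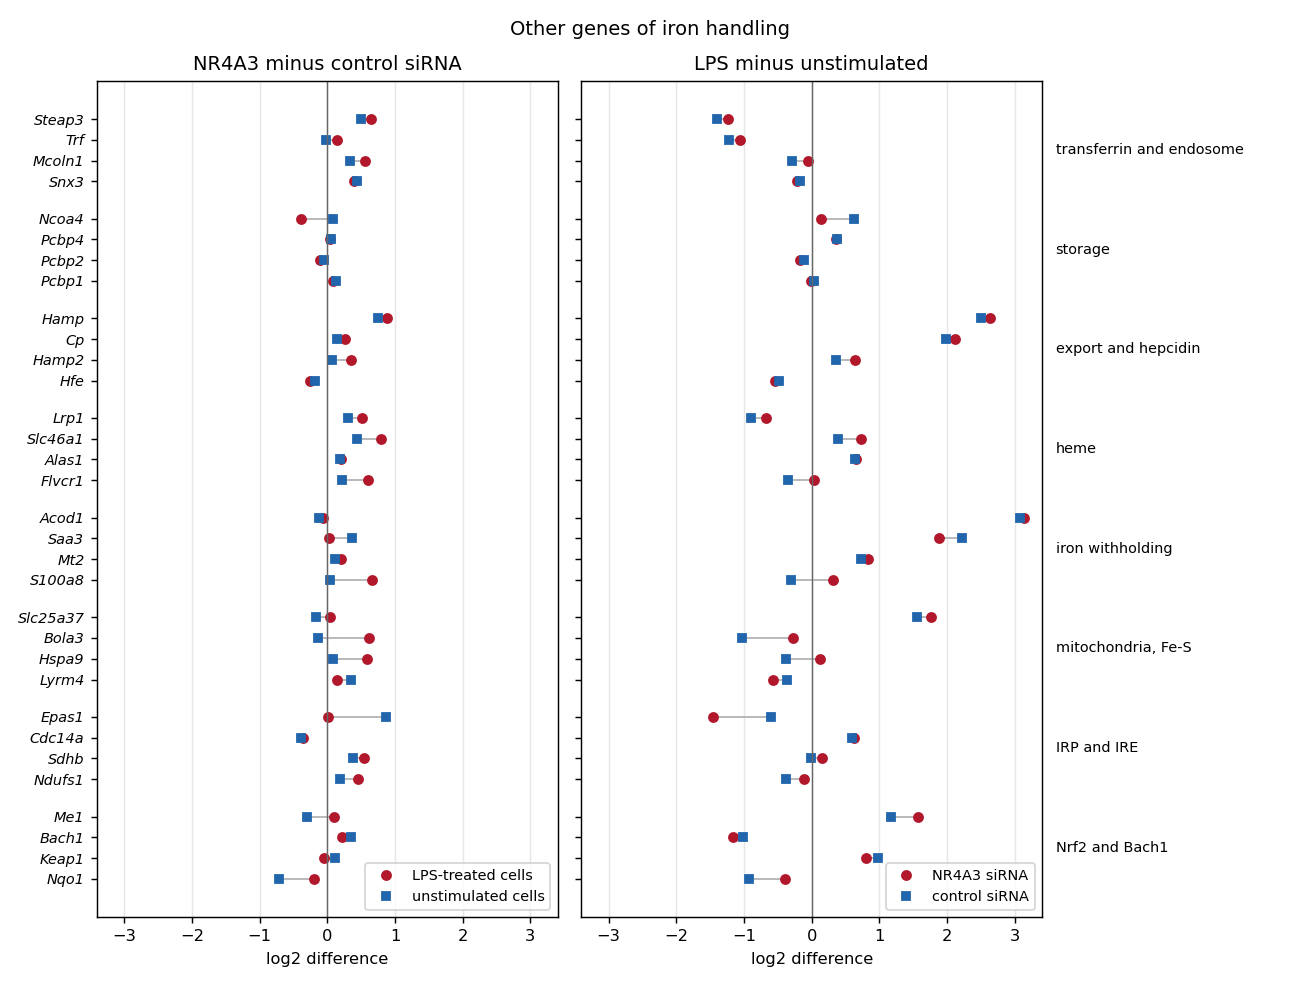
Log2 differences in the 4 array pairs for 32 further iron genes, the 4 with the largest difference in each of 8 lists. The LPS differences of Acod1, Hamp, Saa3 and Cp extend farthest to higher levels, and those of Epas1, Steap3 and Trf to lower levels.

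In all, 122 other iron genes were listed, 116 were measured and 92 entered the fit. With NR4A3 siRNA 4 rose (Steap3, Hamp, Slc46a1 and Uros) and 1 fell, beside the 1.98% and 3.58% given above. With LPS 16 rose and 13 fell, beside 15.6% and 14.4%. The LPS counts are near the shares of all genes. None of the 90 past the filter was 2-fold different between the siRNAs in either state, and the median difference was 0.09 with LPS and 0.07 without, against 0.05 and 0.02 over all genes. As for the members, the siRNA calls depended on the scaling and the filter: 1 rose and none fell with cyclic loess scaling, with quantile normalization run again on named genes, or without the filter.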

How the data were processed

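Per the labels, the authors deposited log2 values from RMA, which included quantile normalization. Affymetrix Expression Console 1.1 is named in the submitters' processing notes, and GeneSpring in the design text. The genome build is not given in the sources used here. Quantile normalization brings the arrays close to a common distribution, so a change shared by most genes may be hidden.

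Gene names come from GEO's platform annotation. It gave a single symbol to 21789 of 28856 probe sets, several to 1621 and none here to 5446. RefSeq held the identifiers of 21698, and 0 names changed. This gave 19938 genes, 999 of them with several probe sets and taken at the brightest. No probe set used here was named for Slc11a1. The members and all gene lists were chosen with earlier results of these data known.

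Array pairs were compared as log2 differences, and folds are powers of 2. A gene counted when the brighter array of the pair reached 6.66. Silencing and LPS effects were fitted with limma 3.58.1 (lmFit and eBayes, R 4.3.3) over 10592 genes with at least 1 array at 6.66, with a prior of 4.76 degrees of freedom and Benjamini-Hochberg adjustment over all of them. Both steps were tested on simulated data. In the simulation of the fit, every gene had equal noise and no difference between LPS effects was added. The real residual holds that difference, so the simulation cannot vouch for the p-values given here. Ranges of adjusted p are over the alternatives in scaling, filter, probe sets and variance trend. Besides the members and Nr4a3, the text names the 4 genes of each iron list with the largest difference and, for members past 2-fold, the 3 nearest patterns. Genes of small called counts, Ftl1, Ltf, Nr4a1, Nr4a2 and the markers are named in addition, after their values were seen. Start windows (250 bases before to 50 after) and motif matches come from RefSeq GRCm38.p6, with Python 3.11.15. The number of arrays, 1 per condition, limits the precision of every value.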

Additional observations from a re-analysis of the deposited data

How the results depend on the processing

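No call reversed in direction under any alternative run. Of the counts of genes, 154 stayed within 1.5-fold of the main count, and 30 moved farther or to or from 0. Under other scalings, 2 differences near 0 that were not called changed sign: that of Aco1 between the siRNAs in unstimulated cells (0.016, lowest -0.00073) and that of Fth1 between the LPS effects (-0.012, highest 0.0027). The other Fth1 differences reached 0. Among values of single genes, 412 kept their status, whether called or not called, 27 lost a call and 7 gained one.
With median centring, repeated quantile normalization or cyclic loess, members at least 2-fold lower with LPS under control siRNA were 1 each, against 2, because Tfrc stood at -0.98. The filter at the 75th percentile of the named genes (8.67) left 0 lower with LPS under either siRNA. A 1.5-fold threshold counted 2 members higher with NR4A3 siRNA in unstimulated cells, 2 higher with LPS, 3 higher with LPS under control siRNA and 1 higher in the difference of LPS effects. A 3-fold threshold counted 0 lower with LPS under either siRNA and 1 higher under NR4A3 siRNA.
In the fit, members called higher with NR4A3 siRNA were 0 with cyclic loess, without the filter and at adjusted p under 0.01. Of all genes, 0.472%, 0.12% and 0.0189% were called higher there. Members called lower with NR4A3 siRNA were 0 in those settings and with repeated quantile normalization. The shares of all genes called lower there were 2.05%, 0.662%, 0.368% and 2.47%. Members called lower with LPS were 1 with cyclic loess, without the filter, with the 75th percentile filter (which drops Slc40a1) and at 0.01. The shares of all genes there were 13.1%, 6.62%, 17.1% and 6.5%.
For the other iron genes, in alternatives chosen after seeing the data, 2 were 2-fold lower with LPS under control siRNA with cyclic loess, against 4. Those called with NR4A3 siRNA were 1 higher and 0 lower with cyclic loess, repeated quantile normalization or no filter, beside the shares given above. The cause of these changes was not tested.
No paired analysis was possible because each condition has 1 array and the labels carry no replicate numbers. Leaving out an array leaves no residual degree of freedom, so that was not run. Values near the filter or near the top of the scale, as for Slc40a1 and Fth1, limit what their differences can show.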
